A study of Mus musculus with 556 samples.

Results

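The vomeronasal type 2 receptor genes (Vmn2r genes) of the mouse were followed in single-cell maps of contact with the nuclear lamina, the protein meshwork under the inner nuclear membrane. The members were the autosomal protein-coding genes whose symbol begins with Vmn2r, and each was placed in the 100 kb bin that holds the gene's midpoint. Of 20665 autosomal protein-coding genes, 123 met the rule, and 121 lay in a bin with a value. They occupied 98 of the 24022 bins with a value, and each bin was counted once. The genes Vmn2r122 and Vmn2r46 lay in bins without a value and are named only here.

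Type 2 vomeronasal receptors are class C G-protein-coupled receptors of the basal sensory neurons of the vomeronasal organ, where they couple to the G protein alpha subunit Gnao1. They detect peptides and proteins such as the exocrine-gland-secreting peptides (Esp genes) and the major urinary proteins (Mup genes), and Vmn2r116 is known as the receptor of the peptide encoded by Esp1. Their genes stand in clusters that grew by tandem duplication, and such gene-poor clusters of sensory receptors are commonly found in lamina-associated domains (LADs), the long stretches of chromatin that touch the lamina.

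Contact was measured with DamID, in which the bacterial adenine methylase Dam, fused to lamin B1, marks GATC sites near the lamina. Dam alone marks accessible chromatin and was the control. The Dam-lamin B1 groups were 56 oocytes, 19 zygotes, 47 blastomeres of 2-cell embryos, 41 blastomeres of 8-cell embryos and 10 embryonic stem (ES) cells. The Dam groups were 43 oocytes, 46 zygotes, 45 2-cell blastomeres and 4 8-cell blastomeres. Further zygotes with Dam-lamin B1 received mRNA of wild-type Kdm5b (14) or mutant Kdm5b (9), or of wild-type Kdm4d (12) or mutant Kdm4d (10), or were kept in aphidicolin (9), which blocks DNA replication, or in its solvent DMSO (11). Kdm5b and Kdm4d are histone demethylases of H3 lysine 4 and H3 lysine 9. Pronuclei separated by micromanipulation were paternal (15) or maternal (10) without Kdm5b, paternal with wild-type (19) or mutant (6) Kdm5b, and maternal with wild-type (19) or mutant (13) Kdm5b. A further 17 and 23 oocytes carried labels of 20 ng and 50 ng of Dam-lamin B1 mRNA.

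Oocytes and pronuclei were labelled C57BL/6, and the other embryos came from C57BL/6 females crossed with CAST/EiJ males. The culture protocol in the labels names F1 (CBAxC57BL/6J) females of 5 to 8 weeks as the source of embryos. ES cells were 129/Sv female x CAST/EiJ male. Injected Dam-lamin B1 mRNA was at 5 ng/µl in oocytes and zygotes, 10 ng/µl in the 2-cell stage and 20 ng/µl in the 8-cell stage, and Dam mRNA was at 20 ng/µl in oocytes and zygotes and 40 ng/µl later. All injected cells of that protocol also received TIR1 mRNA at 250 ng/µl and membrane-EGFP mRNA, so that auxin could hold back the AID-tagged methylase outside a window of 6 to 8 hours. Kdm5b mRNA was given at 2 µg/µl. Oocytes and zygotes thus differ in stage and strain at the same doses. Zygotes and 2-cell blastomeres share a cross and differ in stage and dose, as do 2-cell and 8-cell blastomeres in the dose of Dam-lamin B1. In each step, stage and the label that moves with it cannot be told apart.

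Each value is an OE ratio, the reads observed in a bin divided by the reads expected there, so that 1 marks the expected level. Within a cell the low values step by a fixed unit, that of 1 read, and from it came depths of 23564 to 1091128 reads per cell (median 71773.5). Zygotes with Dam-lamin B1 were shallower (median 41812 reads) than zygotes with Dam (median 94299 reads). Of the Vmn2r bins, 16 had under 0.5 of the median expected reads, against 2.02% of all bins, and 13 of these 16 lay in 1 cluster of chromosome 7. The remaining 82 are called mappable bins below. Maps of this kind hold no marker RNA, so the stage labels were not checked against markers. The labels name no animals or embryos, so oocytes, blastomeres and ES cells are described over cells without a test. Tests were made between groups of zygotes or pronuclei, each taken as a replicate, and their p-values measure the spread between these samples. Shared animals, or pronuclei taken from the same zygote, could not be taken into account.

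The genes fell into 18 clusters of neighbours no more than 1 Mb apart, 17 of them with values, named here by chromosome and a letter (GRCm38/mm10). The largest were chr7B with 24 genes (chr7:7212996-10176286, Vmn2r29 to Vmn2r52), chr17A with 22 genes (chr17:17703941-20596259, Vmn2r90 to Vmn2r110) and chr7E with 15 genes (chr7:84940169-87037968, Vmn2r65 to Vmn2r79). The cluster chr5A held 10 genes (chr5:108797193-109453387), chr6 held 9 (chr6:123308333-124231784), and chr7D (chr7:41399732-43048106) and chr17B (chr17:22547941-23479597) held 8 each. The cluster chr3 held 7 genes (chr3:64078172-64719602). The clusters chr7C (chr7:12581470-12733320), chr10A (chr10:79148816-79492154) and chr10B (chr10:130385800-130497379) held 4 each, and chr14 held 2. Single genes were Vmn2r18 (chr5:151561661-151586924), Vmn2r28, Vmn2r118, Vmn2r120 and Vmn2r129. Pseudogenes of the family stood between them, 24 of them in chr7E and 17 in chr7B. In 80 of the 98 bins no protein-coding gene other than Vmn2r genes had its midpoint.

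Dam reads only GATC, so the promoters are shown with each GATC in capitals. The 250 bases before the start of 4 genes, 5′ to 3′ in the gene's direction (RefSeq, GRCm38.p6), stand for the range met in the family. They are Vmn2r103 of chr17A (chr17:19773113-19773362, plus strand), whose bin had the largest lamin B1 difference in zygotes, Vmn2r116 of chr17B (chr17:23384553-23384802, plus strand), the Esp1 receptor, Vmn2r9 of chr5A (chr5:108852511-108852760, minus strand), with the most GATC sites of its cluster, and Vmn2r45 of chr7B (chr7:8488960-8489209, minus strand), whose bin was lower with lamin B1.
Vmn2r103: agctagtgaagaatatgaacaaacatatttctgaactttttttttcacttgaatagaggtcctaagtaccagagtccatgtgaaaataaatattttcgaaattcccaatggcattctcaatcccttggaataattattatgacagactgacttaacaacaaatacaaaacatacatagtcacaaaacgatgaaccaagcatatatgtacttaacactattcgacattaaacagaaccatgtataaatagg
Vmn2r116: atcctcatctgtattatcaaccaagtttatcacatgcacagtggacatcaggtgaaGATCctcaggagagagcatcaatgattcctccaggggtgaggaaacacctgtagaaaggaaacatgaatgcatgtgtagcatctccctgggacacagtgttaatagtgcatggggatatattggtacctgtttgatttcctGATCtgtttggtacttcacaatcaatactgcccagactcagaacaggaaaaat
Vmn2r9: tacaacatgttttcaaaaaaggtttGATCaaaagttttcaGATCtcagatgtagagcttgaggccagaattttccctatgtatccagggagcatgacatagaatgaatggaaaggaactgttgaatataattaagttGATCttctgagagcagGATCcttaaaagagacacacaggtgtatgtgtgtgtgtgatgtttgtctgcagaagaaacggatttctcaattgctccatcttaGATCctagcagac
Vmn2r45: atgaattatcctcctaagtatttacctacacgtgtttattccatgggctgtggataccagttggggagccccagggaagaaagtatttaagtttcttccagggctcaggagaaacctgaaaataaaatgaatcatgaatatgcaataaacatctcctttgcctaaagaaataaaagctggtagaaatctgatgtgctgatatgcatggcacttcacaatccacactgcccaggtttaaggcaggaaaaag

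The sequences held 0 GATC sites in Vmn2r103, 2 in Vmn2r116, 5 in Vmn2r9 and 0 in Vmn2r45. Of the 116 Vmn2r promoters matched by symbol, 66 (56.9%) held a GATC, against 40.6% of 16457 autosomal protein-coding promoters, 43.6% of 938 olfactory receptor promoters and 34.5% of 206 promoters of the type 1 vomeronasal receptor (Vmn1r) genes. The sites were spread unevenly over the clusters. All 10 promoters of chr5A and all 8 of chr17B held at least 1, as did 14 of 22 in chr17A, 4 of 13 in chr7E and 1 of 22 in chr7B. The promoters were poor in CG. Their median was 1 CG dinucleotide, against 10 in all promoters, 42 of the 116 (36.2%) had none, against 7.01% of all promoters, and the median G+C content was 38.6%, against 55.6%. No 10-base word was common to the family. The word AAGAAAGTAT, 1 of 3 words tied for the widest spread when both strands were searched, was found in 21 Vmn2r promoters (18.1%), against 0.201% of all promoters, and 20 of the 21 were in chr7B. In Vmn2r45 it lies within the printed stretch.

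In lists of LADs that the authors deposited for the inner cell mass (ICM) and the trophectoderm (TE) of blastocysts, 87 of the 98 Vmn2r bins were covered over at least 50% of their length in both. A further 7 bins were covered in TE only, 4 in ICM only, and 0 in neither. The bins covered in 1 list only were 8 bins of chr7B, 2 of chr3 and the Vmn2r129 bin. For comparison below, 12082 of all bins were in both lists and 7688 in neither.

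Lamin B1 contact of the Vmn2r bins was low in oocytes, high in zygotes, lower again in 2-cell blastomeres and high in 8-cell blastomeres and ES cells. The mean OE over the 98 bins was 0.698 ± 0.306 in oocytes (SD over 56 cells), with a lowest cell of 0.272, a median of 0.612 and a highest of 1.66. It was 1.21 ± 0.283 in zygotes (n = 19), with 0.780, 1.14 and 1.84. It was 0.863 ± 0.209 in 2-cell blastomeres (n = 47), with 0.606, 0.806 and 1.49. These 3 stages overlapped, and the mean reached 1 in 8 of 56 oocytes, 15 of 19 zygotes and 10 of 47 2-cell blastomeres. The mean OE was 1.16 ± 0.204 in 8-cell blastomeres (n = 41, 0.880 to 1.78, median 1.12). It was 1.20 ± 0.223 in ES cells (n = 10, 0.980 to 1.72, median 1.15). Both late groups stood mostly above 1, in 34 of 41 blastomeres and 9 of 10 ES cells. The oocytes labelled 20 ng (0.721 ± 0.143, n = 17) and 50 ng (0.702 ± 0.097, n = 23) were near the other oocytes in this mean. Their spread over cells was smaller, and their median over bins, given further below, was higher.

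**Figure D1:**
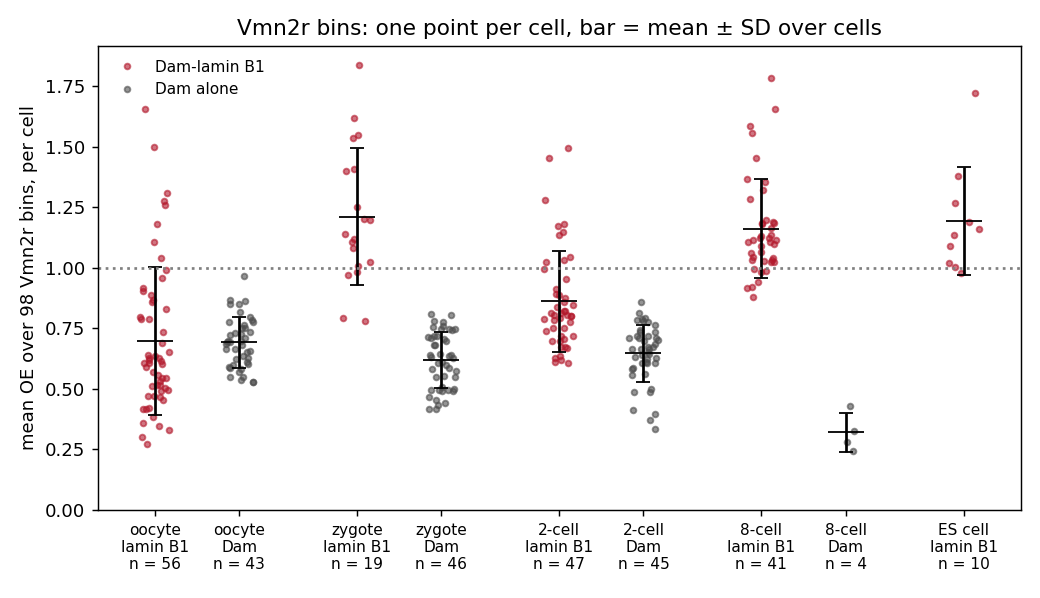
Mean OE ratio over the 98 Vmn2r bins (vertical axis) for each cell, with Dam-lamin B1 in red left of Dam alone in grey at each stage. Bars give the mean ± SD over cells and the dotted line an OE of 1. The 19 zygotes with Dam-lamin B1 average 1.21, against 0.618 for the 46 zygotes with Dam.

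With Dam alone the mean did not follow this order. It was 0.692 ± 0.105 in oocytes (n = 43, highest 0.966), 0.618 ± 0.116 in zygotes (n = 46, 0.416 to 0.811), and 0.647 ± 0.120 in 2-cell blastomeres (n = 45, highest 0.859). The 4 8-cell blastomeres had 0.245, 0.280, 0.326 and 0.432. No cell with Dam alone reached 1. In oocytes the groups overlapped throughout, and the mean OE of a bin was higher with Dam-lamin B1 than with Dam in 45 of the 98 bins and lower in 52. These 45 bins were 45.9%, against 30.6% of all bins and 38.9% of the bins in both LAD lists. In zygotes the mean OE was higher with Dam-lamin B1 in 80 of 98, in 2-cell blastomeres in 65 and in 8-cell blastomeres in 94. Of the bins in both LAD lists 65.1%, 79.4% and 91.0% were higher at these stages, and of all bins 42.6%, 54.8% and 64.7%. The median log2 difference of mean OE (computed with 0.25 added, as for every log2 value here) was −0.03 in oocytes, 0.77 in zygotes, 0.17 in 2-cell blastomeres and 1.35 in 8-cell blastomeres. Over all bins the medians were −0.19, −0.20, 0.11 and 0.60.

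The dip at the 2-cell stage was shared with olfactory receptor bins and was not seen over the bins of both LAD lists. From zygotes to 2-cell blastomeres, the mean OE of 75 of 98 Vmn2r bins was lower (76.5%), with a median log2 difference of −0.43. Over all bins 53.5% were lower (median −0.07), over the bins in both LAD lists 50.3% (median −0.01), and over the 338 olfactory receptor bins 77.8% (median −0.58). Of the 102 Vmn1r bins 38.2% were lower (median 0.03). Among the 82 mappable Vmn2r bins 69 were lower (median −0.48). Dam alone gave a median of −0.00 over the Vmn2r bins for the same step, with 48 bins higher and 49 lower. These are descriptions of 2 groups of cells, and the difference between sets of bins was not tested.

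The steps on either side ran the other way. From oocytes to zygotes 77 of 98 Vmn2r bins were higher (median 0.57), against 53.9% of all bins (median 0.08) and 68.7% of the bins in both LAD lists (median 0.38). From 2-cell to 8-cell blastomeres 69 were higher and 27 lower (median 0.32), against 53.2% higher in both LAD lists (median 0.06) and 77.2% of olfactory receptor bins (median 0.45). From 8-cell blastomeres to ES cells 50 were higher and 46 lower (median 0.02). The number of Vmn2r bins with a mean OE of at least 1 was 22 in oocytes, 63 in zygotes, 31 in 2-cell blastomeres, 59 in 8-cell blastomeres and 71 in ES cells.

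**Figure D2:**
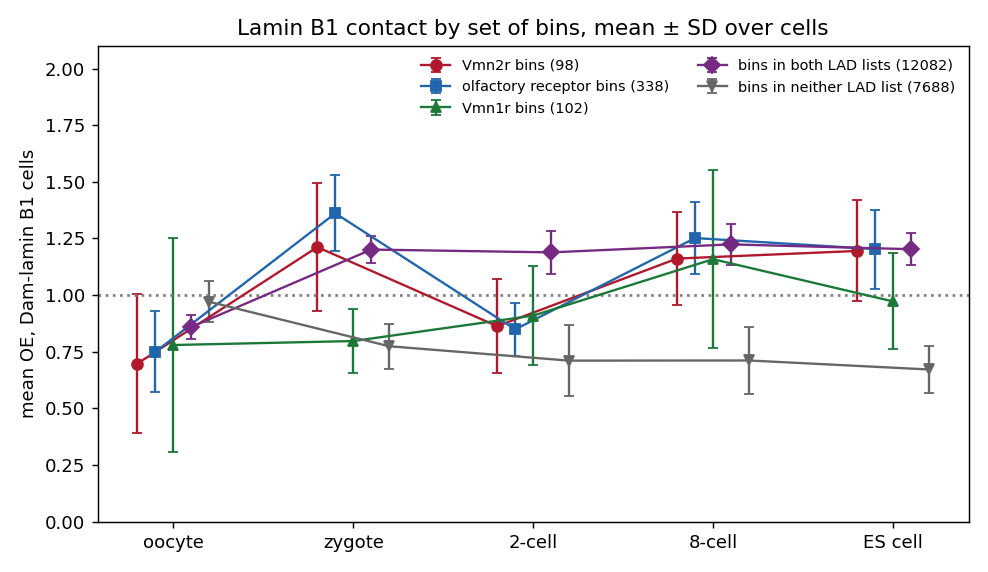
Mean OE ratio (vertical axis, ± SD over cells) in Dam-lamin B1 cells at each stage for Vmn2r, olfactory receptor and Vmn1r bins and for bins in both or neither LAD list, with the number of bins in brackets. At the 2-cell stage Vmn2r bins average 0.863 and olfactory receptor bins 0.849, against 1.19 for bins in both LAD lists.

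Counted cell by cell, an average zygote with Dam-lamin B1 had an OE of at least 1 in 44.6% of the Vmn2r bins. The share was 23.4% in oocytes, 32.3% in 2-cell blastomeres, 45.5% in 8-cell blastomeres and 51% in ES cells. With each cell thinned to 30000 reads, and shallower cells left out, it was 25.5% in oocytes, 42.3% in zygotes, 30.2% in 2-cell blastomeres, 43.3% in 8-cell blastomeres and 45.2% in ES cells. Thinned 2-cell blastomeres thus kept the lower share, while the bins in both LAD lists gave 38.8% in zygotes and 38.4% in 2-cell blastomeres. With Dam the thinned Vmn2r share was 27.0% in oocytes, 22.0% in zygotes and 23.2% in 2-cell blastomeres, and it was lowest in 8-cell blastomeres. In oocytes the thinned share with Dam-lamin B1, 25.5%, was thus not above that with Dam.

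The clusters did not move as one. The cluster chr7E was low in oocytes, high in zygotes and low again at the 2-cell stage. Its mean OE was 0.495 ± 0.355 in oocytes, 1.31 ± 0.810 in zygotes, 0.647 ± 0.342 in 2-cell blastomeres, 1.13 ± 0.421 in 8-cell blastomeres and 1.23 ± 0.382 in ES cells. All 15 bins were higher in zygotes than in oocytes (median log2 difference 1.01), and all 15 were lower in 2-cell blastomeres than in zygotes (median −0.88). In 8-cell blastomeres 12 of the 15 were higher than in 2-cell blastomeres and 3 were lower (median 0.49). In oocytes all 15 were lower with Dam-lamin B1 than with Dam (0.495, against 0.704 with Dam), where 69.3% of all bins were lower.

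The cluster chr17A was high in zygotes and stayed near the expected level afterwards. Its mean was 0.636 ± 0.529 in oocytes, 1.74 ± 0.586 in zygotes, 1.05 ± 0.458 in 2-cell blastomeres, 0.988 ± 0.390 in 8-cell blastomeres and 1.29 ± 0.446 in ES cells. From zygotes to 2-cell blastomeres 17 of its 18 bins were lower (median −0.59), and from 2-cell to 8-cell blastomeres 9 were higher and 9 lower. Its neighbour chr17B, which holds Vmn2r116, had 1.05 in oocytes, 1.92 in zygotes, 1.71 in 2-cell blastomeres, 1.53 in 8-cell blastomeres and 1.26 in ES cells.

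The cluster chr5A peaked at the 8-cell stage, with 0.808 in oocytes, 1.08 in zygotes, 0.673 in 2-cell blastomeres, 1.75 in 8-cell blastomeres and 1.15 in ES cells. All 6 of its bins were lower in 2-cell blastomeres than in zygotes, and all 6 were higher in 8-cell than in 2-cell blastomeres (median 1.07). The 3 bins of chr7C ran against the family: they averaged 1.02 in oocytes, 0.675 in zygotes, 1.53 in 2-cell blastomeres, 1.25 in 8-cell blastomeres and 1.19 in ES cells, and all 3 were higher in 2-cell blastomeres than in zygotes (median 0.88). The 2 bins of chr10B had the highest cluster mean in zygotes, 2.26, with 0.825 in oocytes, 1.10 in 2-cell blastomeres, 1.77 in 8-cell blastomeres and 1.54 in ES cells. The single chr14 bin, of Vmn2r88 and Vmn2r89, was highest in oocytes (2.00 ± 2.21, lowest cell 0, median 1.32, highest 11.1).

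The cluster chr7B stayed below 1 at every stage, from 0.535 in oocytes to 0.891 in ES cells, and its bins had on average 0.328 of the median expected reads. Of its 17 bins 9 were lower and 8 higher in 2-cell blastomeres than in zygotes. The cluster chr6 also stayed below 1 (0.536 to 0.949). Its bins of Vmn2r20 and Vmn2r21 were listed at 0 in every zygote, 2-cell blastomere, 8-cell blastomere and ES cell with Dam-lamin B1, and the least mappable bin of the cluster had 0.0110 of the median expected reads. In such bins a value of 0 says little about contact.

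**Figure D3:**
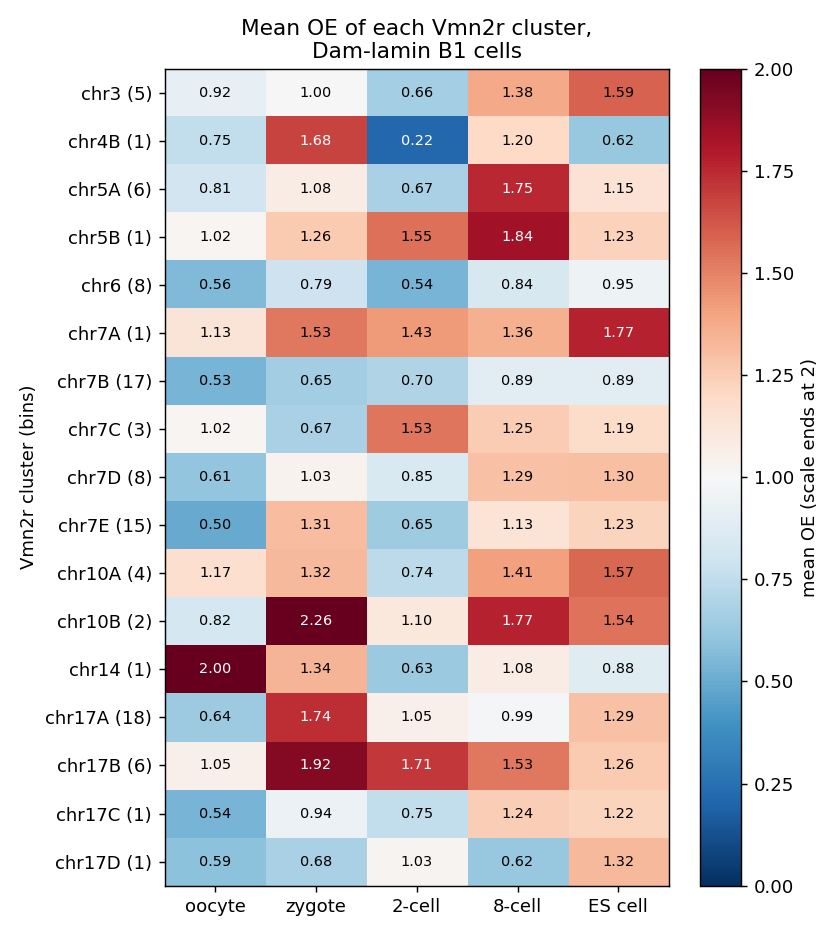
Mean OE ratio (colour, blue below 1 and red above 1, scale ending at 2) of each Vmn2r cluster (rows, number of bins in brackets) in Dam-lamin B1 cells at each stage (columns). The chr7E row reads 1.31 in zygotes and 0.65 in 2-cell blastomeres, while the chr7C row reads 0.67 and 1.53.

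Single bins varied widely between cells. The Vmn2r91 and Vmn2r92 bin (chr17:18100001-18200000) had the highest mean of any Vmn2r bin in zygotes, 2.81 ± 2.11, with a lowest cell of 0, a median of 2.55 and a highest of 8.62. It had an OE of at least 1 in 31 of 56 oocytes, 16 of 19 zygotes, 34 of 47 2-cell blastomeres, 13 of 41 8-cell blastomeres and 7 of 10 ES cells. Contact at this bin was thus frequent in zygotes and 2-cell blastomeres and less frequent at the 8-cell stage, where the share was 31.7% (exact 95% interval 18.1% to 48.1%), against 72.3% (57.4% to 84.4%) at the 2-cell stage. These intervals cover counting over cells only. Cells with Dam alone also reach an OE of 1, on average in 23.2% of the Vmn2r bins in oocytes and 22.8% in zygotes. The share with Dam was 24.1% in 2-cell and 11.0% in 8-cell blastomeres. In oocytes Dam-lamin B1 gave 23.4%, so oocyte counts at single bins cannot be taken as lamina contact.

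The Vmn2r103 bin behaved alike, with contact in 25 of 56 oocytes, 15 of 19 zygotes, 35 of 47 2-cell blastomeres, 6 of 41 8-cell blastomeres and 6 of 10 ES cells. The Vmn2r65 bin at the start of chr7E did the reverse at the 2-cell stage, with contact in 15 of 56 oocytes, 12 of 19 zygotes, 14 of 47 2-cell blastomeres, 34 of 41 8-cell blastomeres and 9 of 10 ES cells. The shares at Vmn2r65 were 29.8% (17.3% to 44.9%) in 2-cell blastomeres and 82.9% (67.9% to 92.8%) in 8-cell blastomeres. The bin of Vmn2r114, Vmn2r115 and Vmn2r116 had contact in 10 of 56 oocytes, 12 of 19 zygotes, 16 of 47 2-cell blastomeres, 28 of 41 8-cell blastomeres and 8 of 10 ES cells, so the Esp1 receptor's bin also dipped at the 2-cell stage. The Vmn2r18 bin showed no dip, with 22 of 56, 9 of 19, 31 of 47, 29 of 41 and 7 of 10 over the same stages.

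In zygotes the Vmn2r bins of 100 kb were more often higher with Dam-lamin B1 than bins at large. The test was limma on log2(OE + 0.25) over all bins, between 19 zygotes that received Dam-lamin B1 and 46 that received Dam, and a bin was called at a Benjamini-Hochberg adjusted p under 0.05. Of 97 Vmn2r bins tested, 39 were called higher (40.2%), where 22.0% of all 23977 bins tested were called higher. Only 3 were called lower (3.09%), where 37.8% of all bins were. The median log2 difference was 0.56 over the Vmn2r bins and −0.36 over all bins. Neighbouring bins of a cluster were counted singly here. Over 1 Mb windows 12 of 31 Vmn2r windows (38.7%) were higher, near the 32.4% of all windows. Lower were 4 Vmn2r windows (12.9%), where 49.2% of all windows were. Of the 86 tested Vmn2r bins in both LAD lists 39 were higher, and none of the 11 others; of all tested bins in both LAD lists 34% were higher and 16% lower, with a median of 0.21. Olfactory receptor bins gave 48.2% higher (median 0.62), and Vmn1r bins 9 of 95 higher and 10 lower (median 0.05). All 39 Vmn2r bins called higher were mappable. Of the 15 tested bins with few expected reads 0 were called higher and 2 lower.

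The calls came from a few clusters. In chr17A 14 of 18 bins were higher (median 1.19), in chr7E 11 of 15 (median 0.81), in chr17B 6 of 6 (median 1.04), and in chr10B 2 of 2 (median 1.26). In chr5A and chr7D 2 bins each were higher, and in chr10A 1 bin, as was the Vmn2r18 bin. In chr3 and chr6 no bin was called in either direction, and in chr7B and chr7C none was higher and 2 and 1 were lower. The same comparison with all cells thinned to equal reads called 38 bins higher and 0 lower, where 19.3% of all bins were higher and 17.8% lower. With each cell centred on its median 49 were higher and 1 lower, where 24.6% of all bins were higher and 30.9% lower, while the median over all bins moved to −0.24. Under both of these scalings chr7B had 1 bin higher and 0 lower.

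The 5 largest differences were all on chromosome 17. The Vmn2r103 bin had 2.30 ± 1.79 OE in zygotes with Dam-lamin B1 (lowest 0, median 1.58, highest 6.43), against 0.495 ± 0.586 with Dam (0, 0.293 and 2.06). The ranges overlapped, but 17 of 19 zygotes with Dam-lamin B1 lay above the mean with Dam, and the log2 difference was 1.80 (SE 0.30, limma adjusted p = 2.62e-07). The Vmn2r102 bin had 2.23 ± 1.44 OE, against 0.532 ± 0.526 with Dam (log2 difference 1.65, 17 of 19 zygotes above the Dam mean). The bins of Vmn2r-ps130, which RefSeq annotates as protein-coding despite its symbol, of Vmn2r104 and of Vmn2r108 had log2 differences of 1.62, 1.59 and 1.58. For Vmn2r108 the median zygote had 1.78 with Dam-lamin B1, against 0.283 with Dam, and contact was seen in 14 of 19 zygotes, against 2 of 56 oocytes and 3 of 47 2-cell blastomeres.

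In other clusters, called bins had log2 differences near 1, and some named bins were not called. The Esp1 receptor's bin had 1.60 ± 1.28 OE, against 0.524 ± 0.463 with Dam (log2 difference 1.11, SE 0.30, limma adjusted p = 0.000974, 16 of 19 zygotes above the Dam mean). The Vmn2r65 bin had 1.79 ± 1.45, against 0.549 ± 0.436 with Dam (log2 difference 1.19). The bin of Vmn2r85, Vmn2r86 and Vmn2r87 had 2.17 ± 1.75, against 0.695 ± 0.583 (log2 difference 1.25). The Vmn2r18 bin had 1.26 ± 1.42, against 0.363 ± 0.306 with Dam (log2 difference 0.98), and 0 of 46 zygotes with Dam had an OE of at least 1 there, which allows a share of up to 7.71% (exact 95% interval). The Vmn2r118 bin, with 0.939 against 0.439, was not called (limma adjusted p = 0.0527), and neither were those of Vmn2r28, Vmn2r120 and Vmn2r129.

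The 3 bins called lower were those of Vmn2r56 (0.664 ± 0.751 OE with Dam-lamin B1, against 1.05 ± 0.634 with Dam, log2 difference −0.79), Vmn2r45 (0.753 ± 1.08, against 0.993 ± 0.881, −0.69) and Vmn2r47 (−0.65). At Vmn2r47 all 19 zygotes with Dam-lamin B1 were at 0, as was the median zygote with Dam. Beside these values stands the difference in depth given above, and at equal reads 0 Vmn2r bins were called lower, with too few reads left to test Vmn2r47. Of all bins 17.8% were lower at equal reads.

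**Figure D4:**
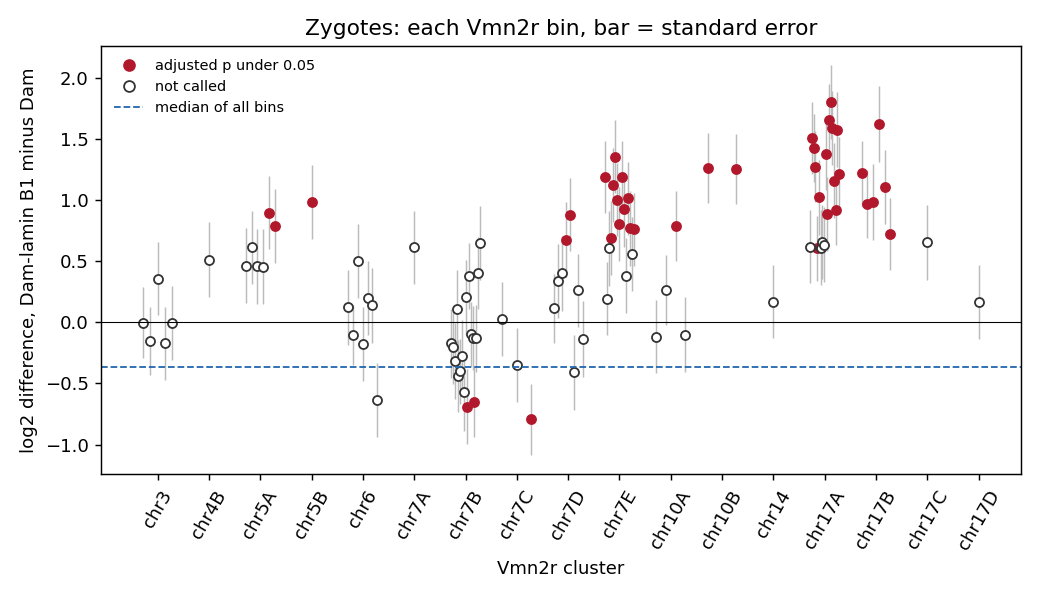
Difference in log2(OE + 0.25) between 19 Dam-lamin B1 zygotes and 46 Dam zygotes (vertical axis, bars ± standard error) for each Vmn2r bin, by cluster (horizontal axis). Filled points have a limma adjusted p under 0.05 and the dashed line is the median of all bins, −0.36. The filled points above 0 crowd in chr7E, chr17A and chr17B.

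The lists of genes that work with the receptors differed in direction in zygotes. Over all bins 22.0% were called higher and 37.8% lower in this comparison. Bins of 10 genes of the signalling chain in V2R neurons, among them the channel gene Trpc2 and the G-protein genes Gnao1 and Gng13, gave 0 called higher and 8 lower. Trpc2 had 0.816 OE with Dam-lamin B1, against 1.48 with Dam (log2 difference −0.79), and Gng13 had 0.925, against 2.46 (−1.41). Of 7 bins of the H2-Mv genes, nonclassical class I genes co-expressed with the receptors, 0 were higher and 4 lower, with H2-M10.2 at −0.91. These falls depended on the scaling: with centring 7 signalling bins and 1 H2-Mv bin were lower, and at equal reads 4 and 0. Of all bins 30.9% were lower with centring and 17.8% at equal reads. Peptide ligand genes of the Esp family were higher in 10 of 11 bins and lower in 0, with a median of 1.09. Esp1 had 2.39 OE, against 0.992 with Dam (log2 difference 0.95), and Esp16 had 1.84, against 0.485 (1.54). The Esp bins and the H2-Mv bins all lie on chromosome 17. None of the 17 Mup bins was called (median −0.26).

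Bins of lineage genes and of other class C receptors were mostly lower, where 37.8% of all bins were. Of 10 bins of genes tied to the olfactory and vomeronasal lineages 1 was higher and 7 lower, with Lhx2 at −1.20 and Kirrel2 at −1.43. Of 14 bins of other class C receptors 2 were higher and 9 lower, with the taste receptor Tas1r1 at −1.38. At equal reads the lineage genes had 0 higher and 5 lower, and the class C receptors 1 higher and 5 lower, where 17.8% of all bins were lower. The formyl peptide receptors of the vomeronasal organ had 2 of 3 bins higher, and 1 of these, of Fpr-rs4 (log2 difference 1.51), also holds a Vmn2r gene. LAD membership differed between the lists as well: 7 of the 10 signalling bins and 9 of the 14 bins of other class C receptors were in neither LAD list, while 11 of 11 Esp bins were in both. In none of the other comparisons was a bin of these lists called.

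No Vmn2r bin was called between wild-type and mutant Kdm5b or Kdm4d. In whole zygotes limma called 0 of 96 Vmn2r bins with wild-type against mutant Kdm5b, where 0.0% of all bins were, and 4 (4.17%) had an unadjusted p under 0.05, 3 higher and 1 lower, against 17.1% of all bins. The mean over the Vmn2r bins was 1.07 ± 0.232 with wild-type Kdm5b (n = 14) and 1.25 ± 0.327 with mutant Kdm5b (n = 9), and the groups overlapped (0.676 to 1.51, against 0.781 to 1.67). The groups also differed in depth, with a median of 216241 reads with wild-type and 85766 with mutant Kdm5b. The median log2 difference was −0.07 over the Vmn2r bins and 0.24 over all bins, and with each cell centred on its median −0.32 and −0.02. Without centring it was 0.005 over the bins in both LAD lists, −0.21 over olfactory receptor bins and 0.32 over Vmn1r bins. With Kdm4d 0 of 96 were called, where 0.00418% of all bins were, and 6 (6.25%) had an unadjusted p under 0.05, against 3.92% of all bins. The means were 1.14 ± 0.343 with wild-type (n = 12) and 1.22 ± 0.325 with mutant Kdm4d (n = 10).

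In separated pronuclei no Vmn2r bin was called with Kdm5b either. In paternal pronuclei 0 of 96 Vmn2r bins were called, where 0.0167% of all bins were, and 8 (8.33%) had an unadjusted p under 0.05, 7 of them lower with wild-type Kdm5b, against 13.9% of all bins. The mean over the Vmn2r bins was 0.792 ± 0.163 with wild-type (n = 19) and 0.967 ± 0.281 with mutant Kdm5b (n = 6). The median log2 difference was −0.13 over the Vmn2r bins and 0.08 over all bins, and with centring −0.24 and −0.04. Without centring the bins in both LAD lists had −0.14 and olfactory receptor bins −0.36, so the negative median was not particular to Vmn2r bins. Vmn1r bins had 0.13. The smallest p was at Vmn2r76 of chr7E, with 0.753 ± 0.516 OE with wild-type (lowest 0, median 0.597, highest 2.11) and 2.16 ± 0.819 with mutant Kdm5b (0.832, 2.19 and 3.36). All 19 pronuclei with wild-type Kdm5b lay below the mean with the mutant, the log2 difference was −1.36 (SE 0.41), and the limma adjusted p was 0.159. In maternal pronuclei 0 of 96 were called, where 0.0% of all bins were, and 5 (5.21%) had an unadjusted p under 0.05, against 9.35% of all bins. The means were 0.865 ± 0.202 with wild-type (n = 19) and 1.14 ± 0.330 with mutant Kdm5b (n = 13). The median log2 difference was −0.18 over the Vmn2r bins and 0.18 over all bins, and with centring −0.43 and −0.08. Without centring it was 0.09 over the bins in both LAD lists, 0.0002 over olfactory receptor bins and −0.05 over Vmn1r bins. Median depths were 74913 reads with wild-type and 52543 with mutant Kdm5b. At the bin of Vmn2r105 and Vmn2r106 OE was 0.515 ± 0.529 with wild-type and 1.64 ± 0.970 with mutant Kdm5b, and all 19 pronuclei with wild-type lay below the mean with the mutant (log2 difference −1.48, limma adjusted p = 0.286). A Fisher exact test of cells in contact, over all bins, also called 0 Vmn2r bins in each of these Kdm comparisons and between aphidicolin and DMSO. A limma fit of both kinds of pronuclei with a term for the difference between them called 0 Vmn2r bins, and 1 bin of 24022 in all.

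Over 1 Mb windows, where each value rests on more reads, calls were made in paternal pronuclei with wild-type against mutant Kdm5b. Of 31 windows with a Vmn2r gene 2 were higher and 3 lower, where 17.2% of all 2413 windows were higher and 14.5% lower, so the shares among Vmn2r windows (6.45% and 9.68%) were no larger than among all windows. All 3 lower windows, singled out after their values were seen, were neighbours that each hold bins of chr7E. The last of them lies mostly beyond the cluster, which ends with Vmn2r79 at chr7:87037968. Their log2 differences were −0.59 (SE 0.18, limma adjusted p = 0.0147) at chr7:85000001-86000000, −0.70 (SE 0.17, limma adjusted p = 0.00542) at chr7:86000001-87000000 and −0.60 (SE 0.14, limma adjusted p = 0.00542) at chr7:87000001-88000000. The window before them, with Vmn2r65, had 0.11 and was not called. The higher windows were those of Vmn2r18 (0.57) and Vmn2r126 (0.37). Over the 15 bins of chr7E the median difference was −0.64 in paternal pronuclei, −0.31 in maternal pronuclei and −0.34 in whole zygotes.

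Between aphidicolin and DMSO the ranges of the family's mean overlapped. It was 1.33 ± 0.206 with aphidicolin (n = 9, 1.07 to 1.82) and 1.27 ± 0.261 with DMSO (n = 11, 0.969 to 1.73). Of 96 Vmn2r bins 0 were called, where 0.00835% of all bins were, and 10 (10.42%) had an unadjusted p under 0.05, 7 higher and 3 lower, against 5.51% of all bins. The smallest p was at the bin of Vmn2r2 and Vmn2r1 on chromosome 3, with 0.914 ± 0.779 OE with aphidicolin and 2.23 ± 1.26 with DMSO (log2 difference −1.29, limma adjusted p = 0.735). The median difference was 0.02 over the Vmn2r bins and −0.01 over all bins.

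Between the parental pronuclei 1 Vmn2r bin differed. The mean over the Vmn2r bins was 1.10 ± 0.258 in paternal (n = 15) and 1.14 ± 0.358 in maternal pronuclei (n = 10). Paternal pronuclei were deeper (median 144985 reads) than maternal pronuclei (median 83407 reads). No Vmn2r bin was called higher in paternal pronuclei, where 1.81% of all bins were, and 1 of 96 was called lower, where 0.275% of all bins were, and 14 (14.6%) had an unadjusted p under 0.05, against 16.3% of all bins. The bin called was that of Vmn2r18 on chromosome 5, with 0.559 ± 0.493 OE in paternal pronuclei (lowest 0, median 0.501, highest 1.80) and 2.89 ± 2.14 in maternal pronuclei (0.439, 2.07 and 6.50). The ranges overlapped, yet all 15 paternal pronuclei lay below the maternal mean, and the log2 difference was −1.87 (SE 0.49, limma adjusted p = 0.0219). The call was lost when cells were centred on their median (−2.02), at equal reads (−2.22), without cells under 100000 reads (−1.71) and in a Fisher exact test of cells in contact, while the direction held in each. Over 1 Mb windows 2 of 31 Vmn2r windows were lower in paternal pronuclei (6.45%) and 0 higher, where 1.49% of all 2415 windows were lower and 7.08% higher. They were the window with Vmn2r18 (−0.89, limma adjusted p = 0.0255) and that with Vmn2r129 (−0.79). The Vmn2r18 window includes the called bin, so the 2 results are not independent.

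**Figure D5:**
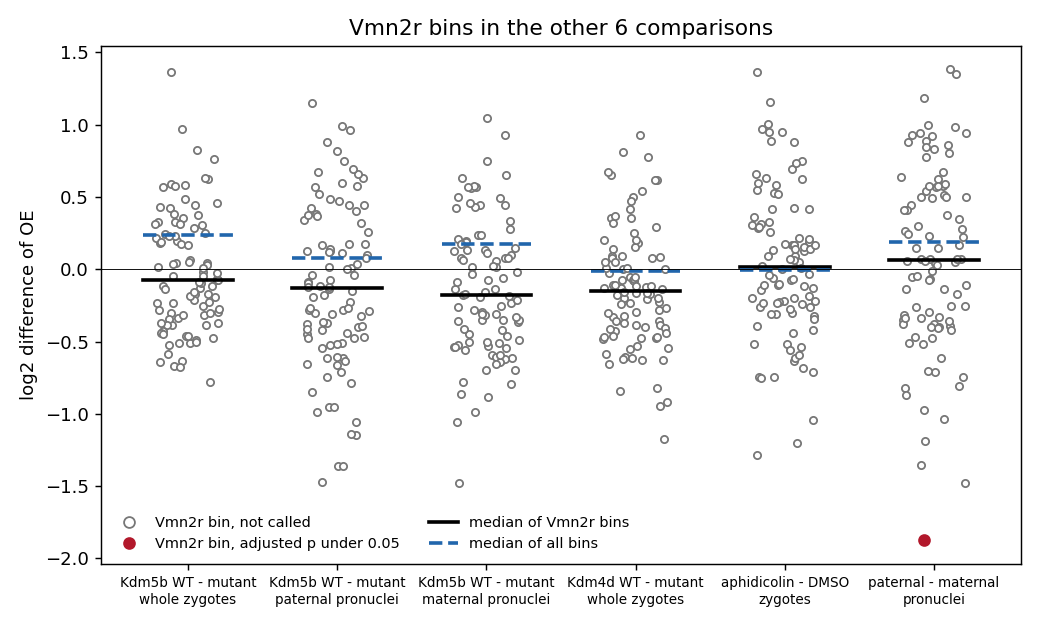
Differences in log2(OE + 0.25) for each tested Vmn2r bin (vertical axis) in the 6 comparisons without Dam alone (horizontal axis), with the medians of Vmn2r bins (black) and of all bins (dashed). The filled point in the last column is Vmn2r18, at −1.87 between paternal and maternal pronuclei.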

How the data were processed

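The authors deposited a table of OE ratios (observed over expected reads) for single cells in 24639 bins of 100 kb; BWA 0.7.12, cutadapt and mm10 are named in the submitters' processing notes, and the making of the expected reads is not described in the labels. Further inputs were the authors' deposited LAD lists of ICM and TE, and RefSeq gene positions and promoters (GRCm38.p6). Of 556 samples, 498 single cells had a group; 14 cells of the table with contradicting labels and the pools were not used. Depth was recovered from the step that 1 read makes, and at least 99.857% of low values were whole reads within 0.02.

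Groups were compared with limma 3.58.1 in R 4.3.3 on log2(OE + 0.25) over all bins with a value, 2-sided, with Benjamini-Hochberg adjustment over all bins tested, called at an adjusted p under 0.05; the step was tested on simulated data. A bin that was constant over the cells compared was not tested. Named bins are, per cluster, the one with most Vmn2r midpoints and clusters of 1 gene, per comparison up to 5 called bins in each direction and the 2 smallest p where none was called, and the 3 highest and 3 lowest bins in zygotes; Vmn2r126, Trpc2 and Esp1 were named outside this rule. Intervals are exact binomial and cover counting only. The members and gene lists were chosen with earlier results of these data known.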

Additional observations from a re-analysis of the deposited data

Results flagged for a closer look

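In groups of 4 to 10 cells, 56 group values were examined, and in 9 of them a cell stood apart from the rest of its group. The measure was the gap to the nearest other cell relative to the group's range. Chance alone sets apart about 1 in 20 groups. The same cells were examined over all Vmn2r bins and over clusters within them, so these values are not independent. The zygote aphidicolin replicate 6 accounted for 3 of the 9, with a mean OE of 1.82 over all Vmn2r bins, 2.67 over chr6 and 3.48 over chr7E. Among ES cells, replicate 13 was high over chr7E (2.14) and replicate 9 over chr17A (2.45). Maternal pronucleus 6 was high over chr7B (2.41), mutant Kdm4d zygote 3 over chr7D (2.31), and paternal pronucleus 3 with mutant Kdm5b over chr17B (2.64). Among the 4 8-cell blastomeres with Dam, replicate 4 was high over chr17A (0.427).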

How the results depend on the processing

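The 39 Vmn2r bins called higher in zygotes with Dam-lamin B1 became 12 over 1 Mb windows (of 31 windows tested), 23 with a replicate block, and 0 when cells under 100000 reads were left out, which kept 2 of 19 zygotes with Dam-lamin B1. The 12 windows were 38.7% of the Vmn2r windows, near the 32.4% of all 2415 windows called higher. With the block 24.0% of Vmn2r bins were higher, against 15.4% of all bins. Without cells under 100000 reads 0.00417% of all bins were higher. Replicate numbers did not pair the samples (19 pairs, correlations −0.05 to 0.04). Between paternal and maternal pronuclei without Kdm5b the correlations were −0.01 to 0.03 over 10 pairs. The block changed no other count of called Vmn2r bins. It took the calls over all bins between paternal and maternal pronuclei to 127 higher and 15 lower, against 434 and 66. In paternal pronuclei with Kdm5b it took those over all bins to 0, against 4, and the 8 Vmn2r bins at an unadjusted p under 0.05 to 4 higher and 4 lower, against 1 and 7. Under the other alternatives the count was 33 to 49. The 3 called lower became 1 with centring on each cell's median, 1 without cells under 40000 reads (an alternative chosen after seeing the data), and 0 at equal reads, without cells under 100000 reads, and in a Fisher exact test. Over 1 Mb windows 4 of 31 Vmn2r windows were lower (12.9%), against 49.2% of all windows. Of all bins 30.9% were lower with centring, 21.2% without cells under 40000 reads and 17.8% at equal reads. Without cells under 100000 reads 0.0709% of all bins were lower, and in the Fisher test 21.3%. Without cells under 100000 reads the log2 difference was −0.15 at Vmn2r-ps130, 0.26 at Vmn2r56 and 0.38 at Vmn2r45, and at equal reads 0.075 at Vmn2r45, each on the other side of 0.

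Paternal pronuclei with wild-type against mutant Kdm5b gave 2 higher and 3 lower over 1 Mb windows, against 0 bins. Paternal against maternal pronuclei gave 2 higher without cells under 40000 reads, against 0, and for the 1 called lower gave 2 over 1 Mb windows and 0 with centring, at equal reads, without cells under 100000 reads and in a Fisher exact test. The cause of these changes was not tested.

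With the median over bins in place of the mean, levels with Dam-lamin B1 were 0.210 in oocytes, 0.828 in zygotes, 0.384 in 2-cell and 0.838 in 8-cell blastomeres. With Dam they were 0.397 in zygotes, 0.429 in 2-cell and 0 in 8-cell blastomeres. Oocytes labelled 20 ng and 50 ng had 0.558 and 0.573, above the 0.210 of the other oocytes, although the means were near. Paternal and maternal pronuclei had 0.790 and 0.734, and maternal pronuclei with wild-type and mutant Kdm5b 0.575 and 0.611. Sparse reads put many single-cell values at 0, which limits every median. Leaving out each 8-cell blastomere with Dam in turn gave 0.284 to 0.346.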

Other observations

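Bins that hold other protein-coding genes beside Vmn2r genes had higher means at each stage than bins with Vmn2r genes alone. The 18 shared bins had a mean OE of 0.791 ± 0.305 in oocytes, 1.41 ± 0.272 in zygotes, 1.07 ± 0.334 in 2-cell blastomeres, 1.32 ± 0.340 in 8-cell blastomeres and 1.26 ± 0.289 in ES cells (SD over cells with Dam-lamin B1). The 80 bins with Vmn2r genes alone had 0.677 ± 0.335, 1.17 ± 0.302, 0.816 ± 0.204, 1.13 ± 0.219 and 1.18 ± 0.229 over the same stages. With Dam the shared bins were higher too, with 0.697 ± 0.179 in zygotes, against 0.601 ± 0.123 in bins with Vmn2r genes alone. These differences were not tested. The kinds of bins were not matched for cluster or expected reads, and bins with few expected reads were kept in.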
